A study of Mus musculus with 20 samples.

Results

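The Sox2 locus was described from the list of merged ATAC-seq peaks of mouse embryonic stem (ES) cells. ATAC-seq marks open chromatin by where a transposase inserts sequencing adapters. A peak belonged to the locus when it shared at least 1 bp with the Sox2 gene (chr3:34650405-34652461, plus strand, GENCODE M21, build GRCm38) extended by 150000 bp on each side. This window, chr3:34500405-34802461, held 26 of the 102373 listed peaks, which are numbered P1 to P26 along the chromosome. The peaks were called on ZHBTc4 ES cells, in which doxycycline (dox) shuts off endogenous OCT4 through a Tet-Off allele. All lines carried a lentiviral SNAP-tagged OCT4 driven by the PGK promoter and the marker YPet-MD. MD-OCT4 carries a Cyclin B1 mitotic degron that strongly lowers the protein at mitosis but leaves some, and MD*-OCT4 carries a mutated, inactive degron. Each was expressed below the wild-type level of OCT4. Both lines were sorted pools of transduced cells, not clones, and were grown in serum with LIF and 2i. The 20 libraries made up 10 groups of 2 replicates. After 40 h in 1 ug/ml dox, the cells of each line were sorted by their Hoechst signal, which reads DNA content, and by YPet-MD, which helps to tell stages of G1 apart. Fractions of early G1 and late G1, of S and of late S/G2 gave 16 libraries, and 4 libraries came from unsorted cells without dox. The list merges the peaks of the dox-treated libraries and gives only the chromosome, start and end of each peak. It holds no level for any library, so MD-OCT4 and MD*-OCT4, the phases and the replicates were not compared at Sox2, the depth is unknown, and every value below describes 1 list without a replicate error or a test.

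Sox2 encodes an HMG-box transcription factor that binds DNA together with OCT4 at composite sites and is needed to keep ES cells pluripotent. It is a single-exon gene that lies inside Sox2ot, a long non-coding transcript read in the same direction. In ES cells its expression is known to depend on a distal cluster of enhancers downstream of the gene, the Sox2 control region, while the enhancer called Sox2 regulatory region 2 lies close to the end of the gene and carries an OCT4 and SOX2 site.

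The 7 stretches of sequence printed here are shown because the rest of the text turns on them: the promoter, the nearest downstream peak, the wide peak at the border of the control region and the 4 peaks of the control region. All are reference sequence of GRCm38, plus strand, in lower case. The control region is here a zone set by distance from the Sox2 start, given further on. It was not matched by coordinates to the published Sox2 control region. Capitals mark a match to one of the motifs described further on. The promoter stretch, chr3:34649745-34649994, is the 250 bases before the RefSeq start of Sox2, and its capitals mark a SOX match. The P6 stretch, chr3:34653773-34654063, is the whole peak plus 2 bases, and its capitals mark an OCT4::SOX2 match. In P19, chr3:34745168-34745467, they mark first a STAT and then a SOX match. In P20, chr3:34757795-34758094, they mark an ESRRB match, and in P21, chr3:34761306-34761605, and P22, chr3:34767120-34767419, a SOX match. P23, chr3:34773951-34774250, held no match and has no capitals. The stretches of P19, P20, P22 and P23 are the central 300 bases of the peak and that of P21 is the last 300.
Sox2 promoter: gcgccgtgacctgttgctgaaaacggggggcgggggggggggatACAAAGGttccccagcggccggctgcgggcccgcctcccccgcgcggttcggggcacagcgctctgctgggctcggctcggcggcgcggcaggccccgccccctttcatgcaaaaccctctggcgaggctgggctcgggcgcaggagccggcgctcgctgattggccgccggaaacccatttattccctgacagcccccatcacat
P6: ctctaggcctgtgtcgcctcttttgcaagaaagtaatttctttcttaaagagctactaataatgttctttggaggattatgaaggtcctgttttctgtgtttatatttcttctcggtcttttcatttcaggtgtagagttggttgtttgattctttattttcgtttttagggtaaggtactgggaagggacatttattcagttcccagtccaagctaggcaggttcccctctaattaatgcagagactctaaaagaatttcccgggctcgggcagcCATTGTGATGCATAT
P19: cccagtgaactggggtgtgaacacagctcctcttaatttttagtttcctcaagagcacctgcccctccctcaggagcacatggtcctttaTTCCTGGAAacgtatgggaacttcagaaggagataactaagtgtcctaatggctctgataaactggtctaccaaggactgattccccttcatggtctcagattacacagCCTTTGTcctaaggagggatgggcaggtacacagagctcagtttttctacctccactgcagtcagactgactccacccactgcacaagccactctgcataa
P20: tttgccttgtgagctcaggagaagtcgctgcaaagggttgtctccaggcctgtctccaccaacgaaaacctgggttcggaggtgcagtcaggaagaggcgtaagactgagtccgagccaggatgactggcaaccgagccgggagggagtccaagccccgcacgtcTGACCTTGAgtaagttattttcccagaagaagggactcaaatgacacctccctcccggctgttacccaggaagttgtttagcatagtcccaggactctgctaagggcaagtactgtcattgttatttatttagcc
P21: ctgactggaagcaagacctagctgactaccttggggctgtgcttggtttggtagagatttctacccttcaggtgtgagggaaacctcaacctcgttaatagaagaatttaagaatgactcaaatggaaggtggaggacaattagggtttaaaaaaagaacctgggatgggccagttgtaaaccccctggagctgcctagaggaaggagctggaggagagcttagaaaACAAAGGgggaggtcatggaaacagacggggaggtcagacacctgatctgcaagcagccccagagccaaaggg
P22: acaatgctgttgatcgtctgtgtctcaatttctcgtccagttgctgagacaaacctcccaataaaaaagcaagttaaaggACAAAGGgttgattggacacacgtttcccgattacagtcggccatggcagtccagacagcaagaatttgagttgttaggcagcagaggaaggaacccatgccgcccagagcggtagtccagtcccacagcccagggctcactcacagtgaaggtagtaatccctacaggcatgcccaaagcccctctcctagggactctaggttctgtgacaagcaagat
P23: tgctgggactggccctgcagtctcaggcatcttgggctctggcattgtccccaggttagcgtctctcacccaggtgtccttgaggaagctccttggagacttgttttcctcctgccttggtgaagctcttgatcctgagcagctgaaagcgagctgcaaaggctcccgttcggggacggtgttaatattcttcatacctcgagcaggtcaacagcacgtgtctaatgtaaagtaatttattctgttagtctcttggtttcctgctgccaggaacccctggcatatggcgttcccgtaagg

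The peaks were spread unevenly around the gene. There were 4 upstream of Sox2, 1 at its start and 21 downstream, so the downstream flank held 17 more than the upstream flank. By distance of the peak centre from the Sox2 transcription start site (TSS), 6 lay near downstream (up to 30000 bp), 8 in the middle (30000 to 95000 bp), 4 in the control region (the next 30000 bp) and 3 beyond it. Per 10 kb, there were 0.268 peaks upstream, 2.23 near downstream, 1.23 in the middle, 1.33 in the control region and 1.11 far downstream. The share of bases inside peaks followed the same order. It was 11.0% near downstream and 7.46% in the control region, against 4.84% in the middle, 3.95% far downstream and 1.23% upstream. Together the 26 peaks covered 13107 bp or 4.34% of the window, against 1.76% of chromosome 3, and the window held 8.61 peaks per 100 kb against 3.36 for the chromosome.

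**Figure D1:**
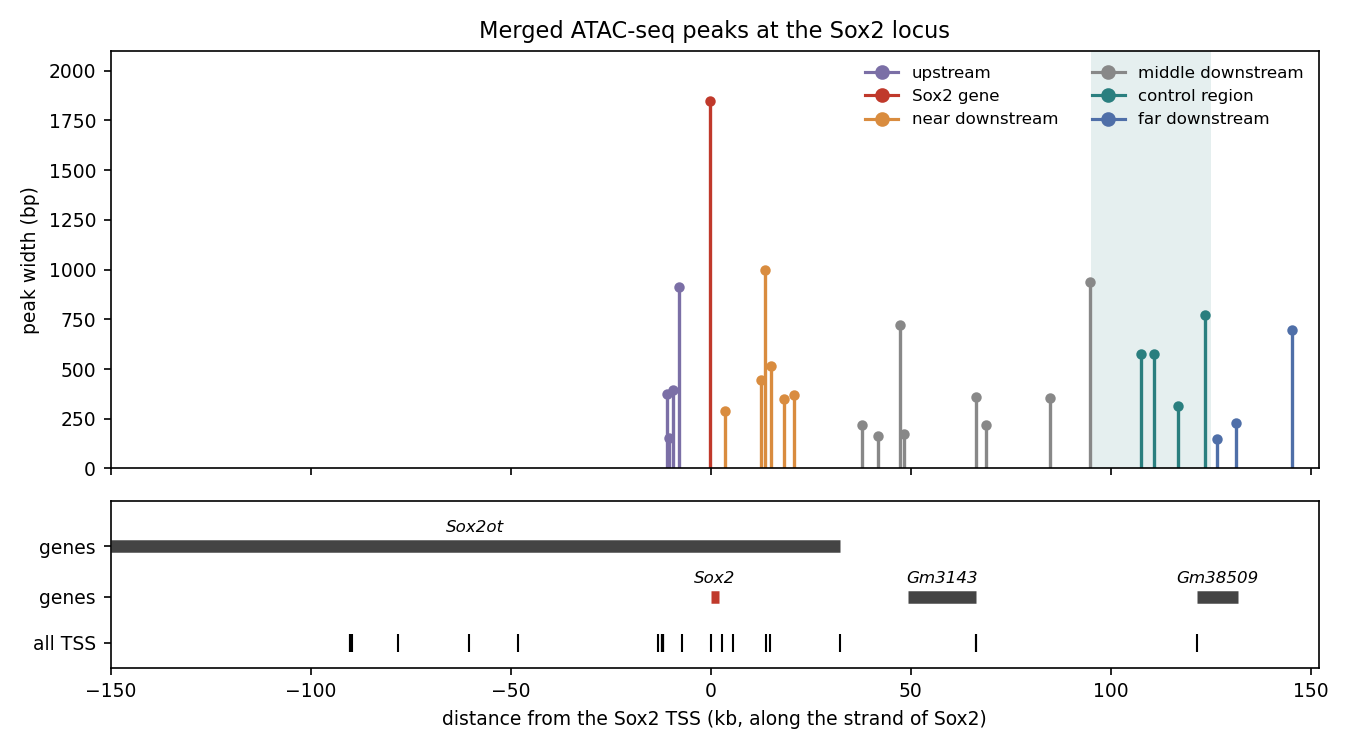
Width in bp of each of the 26 listed peaks (vertical lines with points, coloured by zone) against the distance of its centre from the Sox2 TSS in kb, with the control region shaded; the lower panel shows 4 annotated genes as bars and every annotated TSS as a tick. The peak at the TSS is the widest at 1849 bp, and no peak lies more than 10.9 kb upstream although the window reaches 150000 bp.

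The peak at the Sox2 start, P5 (chr3:34649227-34651075), was the widest of the locus at 1849 bp. It reached 1178 bp upstream of the GENCODE TSS and covered the first 671 bp of the gene, which is 32.6% of its length. RefSeq places the start of Sox2 at 34649995, 410 bp before the GENCODE start, and P5 covers both. Of all listed peaks, 99.2% were narrower than P5 and 93.2% had a lower GC content than its 63.4%. Its rank was lower among peaks of its own kind. Of the 14234 peaks that lie over a protein-coding TSS, with a median width of 1075 bp, 95.3% were narrower. Of all peaks at most 1000 bp from any annotated TSS, 77.5% had a lower GC content than P5. Its observed over expected CpG ratio of 0.836 was the highest of the 26, and repeats (soft-masked bases) made up 4.98% of it.

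Downstream of the gene, P6 (chr3:34653773-34654061) was the first peak, 2.70 kb after the end of P5 and with its centre 3.51 kb from the TSS. By its general position P6 lies near where Sox2 regulatory region 2 is described, but no enhancer annotation was used here and P6 was not matched to it by coordinates. It was narrow, at 289 bp, and had the lowest GC content of the locus, 40.5%, which 9.11% of all peaks fall below. It counts as promoter-proximal only through Gm27611, annotated as a miscellaneous RNA, whose start is 595 bp away. The OCT4::SOX2 composite match printed above, CATTGTGATGCATAT at chr3:34654049-34654063 with 2 mismatches to the consensus, began inside P6 and ended 2 bases beyond it, with 13 bases inside. It was the only OCT4::SOX2 match on chromosome 3 that crossed the edge of a listed peak. A SOX match, CCATTGT at chr3:34654048-34654054, overlapped it and lay wholly inside P6.

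The 4 upstream peaks lay close together between 10.9 and 7.89 kb before the TSS, all in introns of Sox2ot. P1 (chr3:34639330-34639702) was 373 bp wide, P2 (chr3:34639879-34640029) 151 bp, P3 (chr3:34640861-34641257) 397 bp and P4 (chr3:34642056-34642965) 910 bp. P4 stood apart from the other upstream peaks in GC content, 59.9% against 41.1% to 49.1%. It is promoter-proximal through Gm42692, an annotated transcript still to be experimentally checked. P1 and P2 were only 176 bp apart, the shortest gap of the locus. Between P4 and P5 no peak was listed over 6.26 kb.

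The other 5 near downstream peaks lay, between 12.6 and 20.8 kb. P7 (chr3:34662795-34663239) and P8 (chr3:34663594-34664592) were 354 bp apart, and P9 (chr3:34665138-34665653) followed after 545 bp. P8 was the second widest peak of the locus at 999 bp, with a GC content of 56.1% and a CpG ratio of 0.803, and it covers the start of Gm42693 on the minus strand. P9, 516 bp wide, covers a Sox2ot transcript start at 34665243. P10 (chr3:34668454-34668804, 351 bp) and P11 (chr3:34671057-34671426, 370 bp) lay in introns of Sox2ot, 3211 and 5814 bp from any TSS. With gaps of at most 10000 bp, P1 to P11 formed 1 unbroken run of 11 peaks over 32.1 kb.

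The middle zone held mostly narrow peaks, with a median width of 287 bp. P12 (chr3:34688082-34688302, 221 bp), P13 (chr3:34692070-34692232, 163 bp), P14 (chr3:34697434-34698155, 722 bp) and P15 (chr3:34698777-34698948, 172 bp) formed a run of 10.9 kb, and P14 alone among them exceeded the 415 bp median of all peaks. P16 (chr3:34716580-34716937, 358 bp) covers both starts of Gm3143, a long intergenic non-coding RNA on the minus strand, and 87.7% of its bases were soft-masked, the highest share of the locus. P17 (chr3:34719244-34719462, 219 bp) lay 2582 bp from a TSS and P18 (chr3:34735015-34735367, 353 bp) 18353 bp. P19 (chr3:34744848-34745787) was the third widest peak of the locus at 940 bp. It was low in GC, at 43.3%, and had the lowest CpG ratio, 0.189. Its centre lay 94.9 kb from the TSS, just short of the 95000 bp at which the control region was set to begin.

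The control region as set here, by distance from the TSS alone, held 4 peaks, all distal and all over 300 bp wide. No enhancer annotation was used, so which of the 4 lie in the published Sox2 control region was not tested. P20 (chr3:34757657-34758232), centred at 107.5 kb, was 576 bp wide and had 48.8% GC. P21 (chr3:34761028-34761605), at 110.9 kb, was 578 bp wide and had 50.7% GC, so this pair differed by 2 bp in width over a gap of 2795 bp. P22 (chr3:34767113-34767426), at 116.9 kb, was the narrowest at 314 bp and had no soft-masked base. P23 (chr3:34773716-34774486), at 123.7 kb, was the widest at 771 bp, had the highest GC content of the 4, 53.6%, and lies within Gm38509, a non-coding gene, in an intron. Their median width of 577 bp compares with 352 bp for all 76716 distal peaks, and their CpG ratios, 0.350, 0.192, 0.367 and 0.398, bracket the 0.218 median of distal peaks. The 4 peaks covered 2239 bp. Of 5213 tiles of 30000 bp, the length of the control region, that divide chromosome 3, 8.57% held 4 or more peak centres and 2911 held none.

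Past the control region lay P24 (chr3:34776807-34776953), P25 (chr3:34781744-34781971) and P26 (chr3:34795410-34796104). P24 was the narrowest peak of the locus at 147 bp, a width that 1.33% of all peaks fall below. P25, 228 bp wide, lies in an exon of Gm38509. P26, 695 bp wide, was the last peak inside the window, 6357 bp from its edge, and the next listed peak, chr3:34813363-34813674, lay 10902 bp outside it. P20 to P25 formed a run of 6 peaks over 24.3 kb, so that P1 to P11 and P20 to P25 together made up 17 of the 26 peaks.

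The upstream flank was the emptiest part of the window. From the window's start to P1 no peak was listed over 138925 bp, and the last peak before the window, chr3:34234374-34234976, lay 265429 bp outside it. The peak-free stretch between that peak and P1 was 404 kb long. Of the 102352 gaps between neighbouring peaks, 547 were at least as long, 38 of them among the 5250 on chromosome 3. The stretch had no unresolved base, 27.3% of it was soft-masked against 35.8% of chromosome 3, and its GC content was 42.8% against 40.5%. It held 20 annotated transcript starts and no protein-coding one. Between the members themselves the median gap was 3767 bp, against 7796 bp over all gaps, and 20 of 25 gaps were at most 10000 bp. The longest lay between P15 and P16, at 17.6 kb, and between P11 and P12, at 16.7 kb.

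Sox2 was the only protein-coding gene with a TSS in the window. The nearest others were Dnajc19, 569 kb upstream, and Atp11b, 1104 kb downstream. The window held 26 distinct annotated TSS of 13 genes. A listed peak lay within 1000 bp of 10 of them, or 38.5%, against 48.9% of all 132629 annotated TSS. These 10 belonged to 8 genes, Sox2, Sox2ot, Gm42692, Gm42693, Gm27611, Gm3143, the microRNA Mir1897 and the miscellaneous RNA RF01953. The 38.5% and the 48.9% describe unlike sets. Among the 26 starts only that of Sox2 is protein-coding, while the 132629 include those of other protein-coding genes. Of the 13 Sox2ot starts in the window, 2 had a peak that close, the one at 34665243 under P9 and the one at 34638504, 826 bp before P1. The other Sox2ot starts had none. The 5 between 34560328 and 34560716 lay at least 78614 bp from any listed peak, and those at 34638174, 34638252 and 34638297 missed the limit by under 200 bp. Gm27403, Gm42695, Gm42205, Gm43206 and Gm38509 had no peak within 1000 bp, and the closest of these to a peak was Gm38509, whose start lay 1641 bp from P23.

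Promoter-proximal peaks, at most 1000 bp from an annotated TSS, made up 7 of the 26 (26.9%), against 25.1% of all listed peaks, and the other 19 were distal. Only P5 among the 7 was near a protein-coding start. P4 and P8 were nearest to the starts of Gm42692 and Gm42693, both annotated as still to be experimentally checked. The rest were nearest to starts of non-coding transcripts. By the annotation at the peak centre, 11 peaks lay in the span of Sox2ot, 3 in that of Gm38509 and 12 outside any annotated gene.

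The 26 peaks ranged from 147 to 1849 bp with a median of 372 bp and quartiles of 243 and 666 bp, against a median of 415 bp and quartiles of 233 and 708 bp for all peaks. There were 11 peaks wider than the overall median. There were 8 peaks under 300 bp (30.8%, against 35.8% of all peaks). GC content had a median of 49.2%, with quartiles of 46.8% and 52.0%, against 50.1%, 45.3% and 55.3% for all peaks. The median soft-masked share was 15.5% against 10.5%, and only P13 and P22 held no soft-masked base, where 20.4% of all peaks held none. The CpG ratio had a median of 0.382 against 0.259. Among the 19 distal peaks, the median width of 353 bp, the median GC content of 48.2% and the median CpG ratio of 0.350 stood beside 352 bp, 48.6% and 0.218 for all distal peaks.

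**Figure D2:**
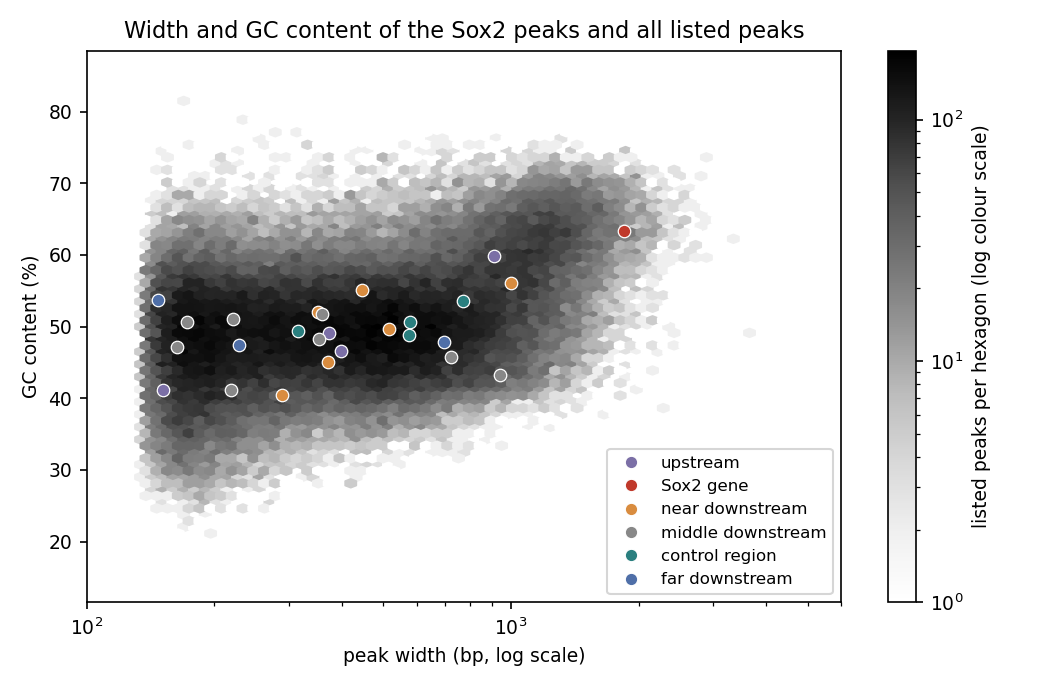
GC content in percent against peak width in bp (log scale) for the 26 peaks of the Sox2 locus, coloured by zone, over all listed peaks drawn as grey hexagons; 5 peaks wider than 6000 bp fall outside the axis. The TSS peak, 1849 bp wide with 63.4% GC, sits apart from the others, and the 4 control region peaks lie between 48.8% and 53.6% GC.

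Motifs of 9 transcription factor families or pairs were searched on both strands as consensus letters. OCT was searched as ATGCAAAT, SOX as CCATTGT or CCTTTGT, ESRRB as TCAAGGTCA, STAT as TTCCNGGAA and TCF as ATCAAAG, and the OCT4::SOX2 composite, KLF, AP-2 and CTCF by the consensus of that name, with up to 2 mismatches for OCT4::SOX2 and 1 for CTCF. The OCT letters and most of the SOX letters are part of the composite, and a STAT match reads on both strands. A match describes letters and is not a bound site. A peak without a match can still hold a site with more mismatches. The study searched motifs with the program HOMER instead, so its motif counts cannot be set beside these. Of the 26 peaks, 12 held at least 1 of the 9 motifs, against 47.7% of all peaks.

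SOX was the most frequent, with 10 matches in 9 of the 26 peaks, P5, P6, P11, P16, P17, P19, P21, P22 and P26, which is 34.6% against 21.3% of all peaks. P5 held 2 of them, one of which lies in the promoter stretch printed above. No peak held a whole OCT4::SOX2 match, which 0.780% of all peaks hold, an OCT match, which 2.56% hold, or an AP-2 match, which 2.41% hold. The KLF consensus, bound by the pluripotency factors KLF2, KLF4 and KLF5, matched in P5 and P26, 2 of the 26 against 8.72% of all peaks. The consensus of the orphan nuclear receptor ESRRB matched once, in P20 of the control region at chr3:34757960-34757968, 20 bp from the peak centre (2.82% of all peaks). That of STAT factors, the effectors of LIF, matched once, in P19 at chr3:34745258-34745266 as TTCCTGGAA (2.17%). TCF, the partner of beta-catenin in Wnt signalling, matched only in P10 (7.89%), and CTCF, the insulator protein, only in P3 at chr3:34640896-34640909 (13.0%). P5, P19 and P26 were the peaks with 2 kinds of motif. None held 3, as only 1.83% of all peaks do or exceed.

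**Figure D3:**
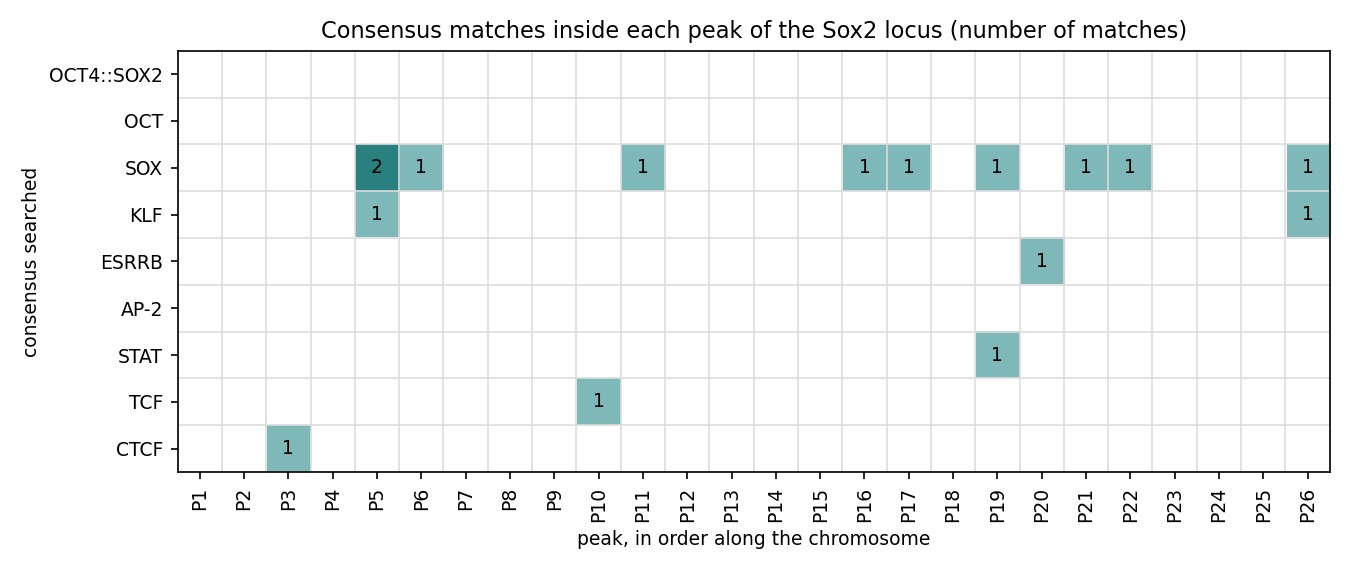
Number of consensus matches lying wholly inside each peak (columns, P1 to P26 along the chromosome) for each of the 9 motifs (rows); empty cells hold none. SOX matches occur in 9 peaks, and the rows of OCT4::SOX2, OCT and AP-2 are empty.

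Within the control region, 3 of the 4 peaks held a match, against 47.7% of all listed peaks. The 4 had a median width of 577 bp against 415 bp for all peaks, and a wider peak has more room for a match. With only 4 peaks, no excess of motifs is read from this count. P20 held ESRRB, P21 held SOX at chr3:34761533-34761539 and P22 held SOX at chr3:34767200-34767206, both as CCTTTGT on the minus strand, while P23, the widest, held none of the 9. The SOX match of P22 lay 66 bp from the peak centre and that of P21 lay 220 bp from it. In P19, just outside the control region as set here, the STAT and SOX matches lay 56 bp before and 52 bp after the centre.

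Most motif matches of the window lay outside its peaks. Peaks covered 4.34% of the window but 1.76% of chromosome 3, so the shares below do not start from the same base. Of 132 SOX matches in the window 10 lay in a peak (7.58%), against 2.28% on chromosome 3 as a whole. For ESRRB these were 1 of 25 (4.00%, against 5.51%), for TCF 1 of 44 (2.27%, against 1.32%), for STAT 1 of 7 (14.3%, against 2.91%), for KLF 2 of 9 (against 408 of 2717 on the chromosome) and for CTCF 1 of 9 (11.1%, against 20.4%). None of the 15 OCT matches of the window lay in a peak, and on chromosome 3 only 0.792% did. The window held 5 OCT4::SOX2 matches, each with 2 mismatches, and none lay wholly in a peak, against 1.92% on chromosome 3. Besides the one at the end of P6, a match at chr3:34734543-34734557 lay 458 bp from P18, one at chr3:34679598-34679612 lay 8172 bp from P11, and both others lay in the peak-free upstream flank, 107795 and 132398 bp from P1.

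In number of peaks, Sox2 was close to the middle of all protein-coding genes. With the same window, the 21938 protein-coding genes had a median of 23 peaks (quartiles 11 and 35), and 44.1% of them had at least the 26 of Sox2. Windows of genes in dense regions count the peaks at their neighbours as well. Among the 1120 genes with no other protein-coding TSS in the window, as is the case for Sox2, the median was 7 peaks and 10.5% had 26 or more.

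The genes of the pluripotency network mostly had more, but the window is longer for a longer gene. Of 16, 13 had more peaks than Sox2 and 3, Zfp42 (25), Klf4 (22) and Nr0b1 (3), had fewer. Their median was 39. Pou5f1, which encodes OCT4, had 42 peaks with 12 other protein-coding TSS in its window, and Nanog, the homeobox factor, had 56 with 6 others, and some of its peaks also count for Dppa3 (52), whose window overlaps. Klf4, which like Sox2 had no other protein-coding TSS in its window, had 22 peaks, 18 of them distal against 19 at Sox2. Its peaks covered 3.91% of the window against 4.34% at Sox2, and their median width was 476 bp against 372 bp. The peaks of Klf5, Tfcp2l1 and Nr5a2, also alone in their windows, numbered 51, 31 and 35. They covered 6.14%, 3.74% and 4.08% of these windows, which are longer than that of Sox2. The widest peak was 1849 bp at Sox2, 1717 bp at Pou5f1, 2101 bp at Nanog and 1382 bp at Klf4. A whole OCT4::SOX2 match lay in 2 peaks at Pou5f1, in 1 at Nanog and in none at Klf4 or Sox2. Of the other network genes, Nr5a2 had 2 such peaks, Zfp42, Stat3 and Dppa3 had 1 each, and the rest had none. SOX matches lay in 11 of 42 peaks at Pou5f1, 17 of 56 at Nanog, 4 of 22 at Klf4 and 9 of 26 at Sox2. Among all peaks, 0.780% held a whole OCT4::SOX2 match and 21.3% a SOX match.

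**Figure D4:**
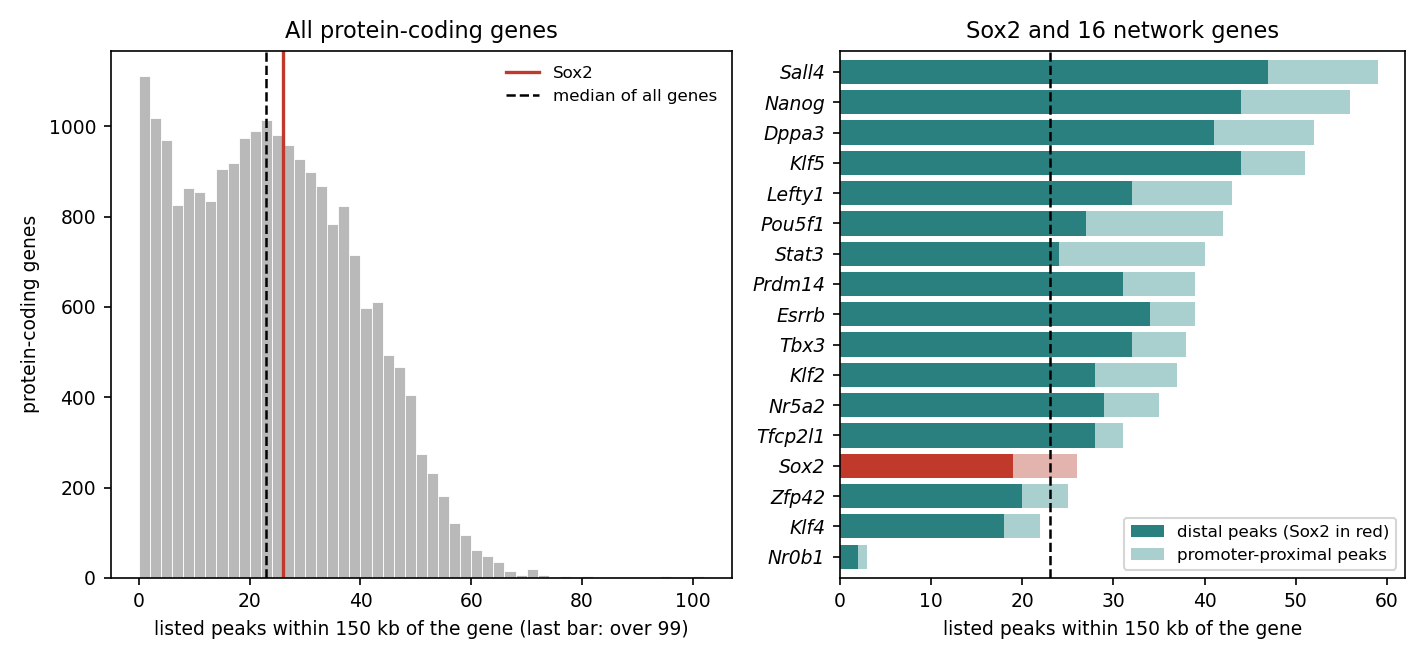
Left, number of protein-coding genes by listed peaks within 150000 bp of the gene, with Sox2 (solid line, 26) and the median of all genes (dashed line, 23). Right, the same count for Sox2 and 16 network genes, divided into distal and promoter-proximal peaks, where 13 of the 16 lie above Sox2 and the range is 3 to 59.

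Counted in 6 bins of 50000 bp from upstream to downstream of the TSS, Sox2 had 0, 0, 5, 10, 4 and 7 peak centres. Of all protein-coding genes, the 5 with the closest pattern were Cbln3, with a Euclidean distance of 2.00, Mgat5, with 2.45, and Dctn6, Gm10131 and Gm10842, each with 2.65. Cbln3 had 0, 1, 4, 10, 5 and 8 peak centres and Mgat5 0, 0, 4, 10, 5 and 5, while Dctn6 and Gm10131 are neighbours on chromosome 8 and share peaks. An empty outer upstream flank was not rare by itself, since 2775 genes (12.6%) had no peak centre in both outer upstream bins. In 37 genes, Sox2 included, or 0.169% of all, this went with at least 21 peak centres downstream. That last combination was chosen after the values of Sox2 were seen.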

How the data were processed

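Per the study's methods, the authors aligned paired reads to GRCm38 (mm10) with STAR 2.6.1c, discarded duplicate reads (Picard) and all but the autosomes and sex chromosomes, called peaks on read pairs (MACS2 2.1.1.20160309) and used BEDTools to merge those from dox-treated cells. The deposited peak list used here has 3 columns and no counts; values per library were not analysed here. Its stated limit of 5000 bp on peak width was tested and is exceeded by 7 peaks. Whether input and blacklisted regions were removed was not tested.

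Peaks were intersected with GENCODE M21, and sequence was read from GRCm38.p6 with Python 3.11.15 scripts (numpy 2.4.6). RefSeq supplied the promoter start. Motif search and window counts were tested on simulated sequence and recovered all 1800 planted matches. The named genes were Sox2, all genes with a TSS in the window, the 16 network genes and the 5 with the closest pattern over bins. All 26 members were described, beyond the peaks that this rule names singly. Members, lists and motifs were chosen with earlier results of these data known. No test was made. Settings varied were window, peak width, joining, TSS set, mismatches and repeats.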

Additional observations from a re-analysis of the deposited data

How the results depend on the processing

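Of 47 recomputed values, 34 stayed close to the reported one by unlike rules, but some of these could not have moved. Joining peaks at most 100 bp apart could not act here, since the shortest gap was 176 bp. Motif counts of 0 could not rise in the central 200 bp, in peaks of at least 300 bp or with fewer mismatches. Only the downstream excess could have changed sign, and it did not. A count was close within 1.5 times. A median was close within a 95% interval over the 26 peaks, and a share within one over all protein-coding genes. Peaks and genes are not replicates, so these intervals serve only as a rule for closeness. The number of peaks was 26 with the window set from the TSS, by peak centre or with peaks at most 100 bp apart joined, 19 with a window of 100000 bp and 18 with peaks of at least 300 bp. The control region held 4 to 6 peaks. Promoter-proximal peaks fell from 7 to 1 when only protein-coding TSS were counted, since P5 alone lies at one. The share of protein-coding genes with at least as many peaks as Sox2, 44.1%, became 26.7% with a window of 50000 bp, 36.6% with distal peaks only, 42.4% with peaks of at least 300 bp, 37.6% with the window set from the TSS and 10.5% among genes with no other protein-coding TSS in the window. Peaks with an OCT4::SOX2 match went from 0 to 1 with up to 3 mismatches (P19) and, counting matches that overlap a peak by 1 base, to 1 (P6). The share of all peaks with a match under either setting is not given here, so these counts have no comparison. The genes with no other TSS and the overlapping match were settings chosen after seeing the data. The downstream excess of 17 peaks became 11 with peaks of at least 300 bp. When only the central 200 bp were searched, peaks with a SOX match went from 9 to 5 (10.8% of all peaks), with KLF from 2 to 1 (4.19%), with TCF from 1 to 0 (3.38%) and with CTCF from 1 to 0 (8.02%). No paired analysis was possible because the peak list used here merges the libraries and carries no replicate. The list has no score, so peaks could be made stricter only by width. Depth, which limits how many weak peaks are listed, is unknown here.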

Other observations

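Sox2ot spans 578 kb (chr3:34104270-34682619) and starts far upstream of Sox2. Of the 13 listed peaks in its span, 11 were the peaks P1 to P11 around Sox2 and 2 lay outside the window, further upstream. With up to 3 mismatches the only OCT4::SOX2 match inside a peak of the locus was CTTAGTCACCCAAAT at chr3:34744926-34744940 on the minus strand, in P19. How often other peaks hold a match this loose is not given here. A SOX match at chr3:34640029-34640035 overlapped P2 by 1 base and was not counted for it.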
